A study of Mus musculus with 6 samples.

Results

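The calcium/calmodulin-dependent protein kinases, the pseudokinase Camkv and the inhibitors of CaMKII form a set of 10 genes of the 47729 in the table of ribosome-associated RNA from mPFC D2 neurons, with 75 of its 115220 transcripts. The genes were taken by name: the CaMKII subunits Camk2a, Camk2b, Camk2d and Camk2g, the inhibitors Camk2n1 and Camk2n2, Camkv, Camk4, and the upstream kinases Camkk1 and Camkk2. They were chosen by the FPKM values of the Gsk3sKO in mPFC D2 and Ctrl libraries, in which transcripts of Camkv and Camk2b had been among those that differed. Their differences between these groups are therefore given as a description, with the log2 fold change and its standard error (SE). Where members are counted below a p-value threshold, the values tested are those by which the set was chosen, and nothing is read from the counts.

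The study asked how the loss of GSK3β from mPFC D2 neurons changes the RNA on their ribosomes. All mice were C57BL/6 males of the D2Cre/LSL-Flag-Cas9/RiboTag line, injected in the mPFC at 2.5 to 3 months of age. The Ctrl group received AAV GFP, which carried no sgRNA, and the Gsk3sKO in mPFC D2 group (Gsk3sKO below) received AAV Gsk3sgRNA/GFP. The tissue was taken 3 weeks later, and 3 libraries per group were sequenced. Mice of both groups carried D2Cre, Cas9 and the hemagglutinin-tagged ribosomal protein Rpl22, the last being switched on by Cre and used to pull down ribosomes. The D2Cre line is a bacterial artificial chromosome transgene, so the tag marked the cells in which that transgene was active, infected or not. Nothing in the labels says whether a library came from 1 mouse or from a pool, and the p-values given here measure only the spread between libraries, which may be technical.

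CaMKII is a holoenzyme of many subunits that is switched on by calcium-bound calmodulin and that can stay active after calcium has fallen by phosphorylating itself. It is among the most abundant proteins of the postsynaptic density of forebrain neurons, where it is needed for long-term potentiation. Camk2n1 and Camk2n2 are small proteins that bind and block the active kinase. Camkv resembles a CaM kinase, lacks kinase activity and is found at synapses. Camkk1 and Camkk2 phosphorylate and activate CaMKIV, a kinase of the nucleus encoded by Camk4, and Camkk2 also activates AMPK.

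Stretches of sequence by which transcripts of Camkv and Camk2b can be told apart are shown here from the GENCODE M21 transcripts (GRCm38), since the values below rest on how reads were divided between them. In Camkv (9:107935674-107949691, plus strand), the coding transcript ENSMUST00000035700 has 11 exons. The transcript ENSMUST00000193533, annotated as a target of nonsense-mediated decay (NMD, the removal of RNA with an early stop codon), has 5 exons, has none that overlap 6 of those 11, and starts its exon 3 31 bases further on. In the first line below, capitals mark the 31 bases that this coding transcript holds and the NMD transcript lacks. They lie at chr9:107945489-107945519, inside the coding sequence, and were not compared with the other Camkv transcripts. The second line is the same stretch as joined in the NMD transcript.
Camkv coding: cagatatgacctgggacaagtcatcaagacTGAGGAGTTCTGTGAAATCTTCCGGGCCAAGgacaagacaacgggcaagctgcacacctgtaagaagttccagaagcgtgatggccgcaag
Camkv NMD: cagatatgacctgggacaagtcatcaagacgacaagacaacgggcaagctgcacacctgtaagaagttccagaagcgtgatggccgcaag
Since 31 is not a multiple of 3, the reading frame moves, and the annotated stop codon of the NMD transcript lies at chr9:107945792-107945794, in exon 4 of 5. A further transcript of Camkv, ENSMUST00000192318, keeps an intron of 214 bases (chr9:107945865-107946078), shown with its first and last pair of bases in capitals.
Camkv retained intron: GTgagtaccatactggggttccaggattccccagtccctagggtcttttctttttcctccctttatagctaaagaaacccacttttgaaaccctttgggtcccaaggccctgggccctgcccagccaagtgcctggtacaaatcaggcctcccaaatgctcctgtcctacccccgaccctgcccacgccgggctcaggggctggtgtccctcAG

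In Camk2b (11:5969644-6066362, minus strand), the transcripts ENSMUST00000109813 and ENSMUST00000090443 share 18 identical exons. ENSMUST00000090443 has 1 exon, not shown here, that overlaps no exon of ENSMUST00000109813. The exons below are in ENSMUST00000109813 and not in ENSMUST00000090443. Both lie in the coding sequence and have lengths that are multiples of 3. Capitals mark the exon and lower case marks the ends of the neighbouring exons. They are the exon of 75 bases (exon 13 of 21, chr11:5987057-5987131) and that of 45 bases (exon 16 of 21, chr11:5981070-5981114).
Camk2b exon 75: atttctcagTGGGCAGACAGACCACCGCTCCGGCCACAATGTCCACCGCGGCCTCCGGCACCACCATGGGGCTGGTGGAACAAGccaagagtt
Camk2b exon 45: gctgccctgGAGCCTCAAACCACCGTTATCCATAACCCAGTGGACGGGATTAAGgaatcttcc

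Values were deposited as FPKM, which sets the fragments of a transcript against its length and against the mapped total of the library. A gene total is the sum of FPKM over the transcripts of a gene. The depth, estimated from the spacing of low values, was between 23.6 and 45.2 M reads per library. Of all FPKM in a library, the short RNA Gm23935 alone took 24.3% in Ctrl 1, 24.9% in Ctrl 2 and 12.9% in Ctrl 3. It took 13.4% in Gsk3sKO 1, 12.2% in Gsk3sKO 2 and 7.8% in Gsk3sKO 3. Ctrl 1 and 2 were thus above every Gsk3sKO library, and Ctrl 3 was within their range. FPKM is set against the library total, and the part of Gm23935 in the differences between the groups was not tested. The gene total of Gsk3b, the targeted gene, was 35.6, 53.8 and 56.5 FPKM in Ctrl and 36.9, 37.0 and 33.6 FPKM in Gsk3sKO. The low Ctrl 1 value falls in the range of Gsk3sKO (log2 fold change -0.40, SE 0.19). The 4 genes taken as D2 neuron markers were all above 1 FPKM on average, with a summed level of 98.5 to 318 FPKM in Ctrl and 146 to 293 FPKM in Gsk3sKO. Most of this sum was Penk alone, at 96.5, 112 and 295 FPKM in Ctrl and 172, 136 and 281 FPKM in Gsk3sKO. Adora2a was at 0, 1.29 and 5.27 FPKM in Ctrl and 2.72, 1.87 and 2.55 FPKM in Gsk3sKO. Gpr6 was at 0.381, 1.4 and 3.62 FPKM in Ctrl and 4.48, 2.51 and 1.61 FPKM in Gsk3sKO. Drd2 itself was at 1.58, 6.02 and 14.1 FPKM in Ctrl and 8.32, 5.96 and 7.28 FPKM in Gsk3sKO. Markers of excitatory neurons summed to 372 to 409 FPKM in Ctrl and 359 to 393 FPKM in Gsk3sKO, and those of inhibitory neurons to 990 to 1318 and 935 to 1029 FPKM. Most of the inhibitory sum was Sst alone, at 816, 942 and 709 FPKM in Ctrl and 652, 717 and 714 FPKM in Gsk3sKO. Most of the excitatory sum was Slc17a7, at 262, 273 and 264 FPKM in Ctrl and 253, 261 and 192 FPKM in Gsk3sKO. The sums of these lists therefore do not compare the amounts of the cell types. The sums of the glial lists ran from 82.0 to 104 FPKM for astrocytes, 118 to 183 FPKM for oligodendrocytes and 12.4 to 25.3 FPKM for microglia over all libraries, and that of the endothelial list from 12.5 to 46.8 FPKM. The part of these cell types in the kinase values was not tested, and fewer cells of a type cannot be told apart from less RNA per cell.

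Camk2a had the highest gene total of the set in 6 of 6 libraries, and Camk4 the lowest in 5 of 6, with Camk2n2 and Camkk1 below it in Gsk3sKO 3. In Ctrl, Camk2a stood at rank 49 of the 12874 gene totals with a mean of at least 1 FPKM, Camkv at 187, Camk2n1 at 260, Camk2b at 547 and Camk2g at 1063. Camk2d, Camkk1, Camk2n2 and Camkk2 followed between ranks 1525 and 2116, and Camk4 at 3239. These levels are per length of transcript. Neighbours in this order were compared within the 6 libraries by a two-sided exact sign-flip permutation test. Its smallest p with 6 libraries is 0.03125 (0.05625 here after adjustment over the 9 pairs), so that no pair passed 0.05 adjusted. The test pooled the groups, and the Ctrl libraries that set the order are among the 6, so its p-values rest partly on the values that set the order.

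The order held in 6 of 6 libraries for 5 of the 9 pairs. Camk2a was above Camkv by 1.69 ± 0.53 on the log2 scale (SD, n = 6 libraries), Camk2n1 above Camk2b by 0.68 ± 0.30, Camk2b above Camk2g by 0.90 ± 0.28, Camk2d above Camkk1 by 0.45 ± 0.52, and Camkk2 above Camk4 by 0.61 ± 0.25, each with the smallest exact p of 0.03125. The Ctrl ranges of Camk2d and Camkk1 still overlapped. Camk2g was above Camk2d in 5 of 6 libraries (exact p = 0.0625, adjusted 0.09375). The order was not settled for Camkv and Camk2n1, where Camkv was higher in 3 of 6 libraries (exact p = 0.7188), nor among Camkk1, Camk2n2 and Camkk2, which overlapped in Ctrl.

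**Figure D1:**
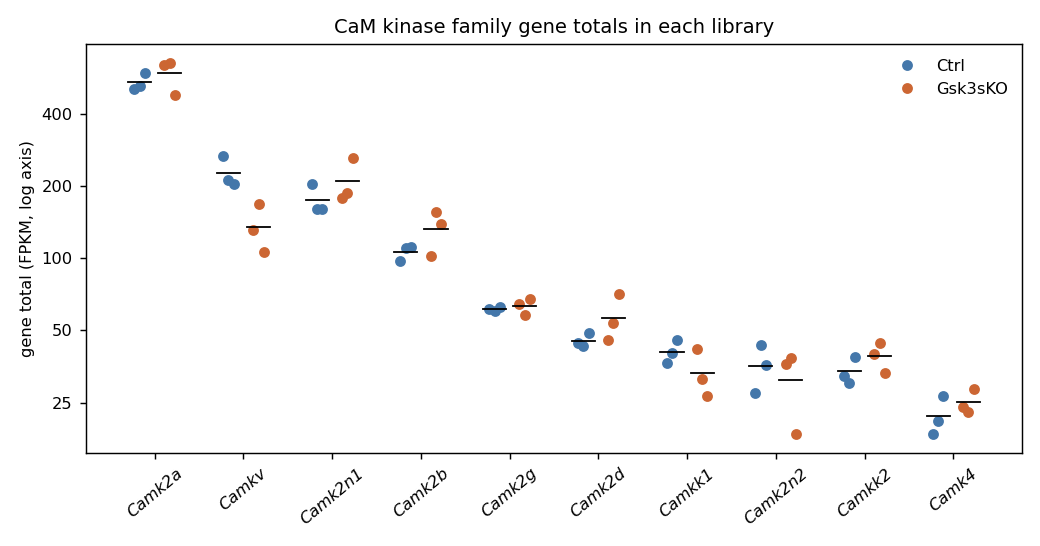
Gene totals of the 10 genes in FPKM on a log axis, 1 point per library and a line at the mean of each group, in the order of the Ctrl mean. Camkv is the gene whose 3 Ctrl libraries (204 to 267 FPKM) all lie above the 3 Gsk3sKO libraries (106 to 169 FPKM), and the other 9 genes overlap between the groups.

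Among the CaMKII subunits, Camk2a (18:60925618-60988152, plus strand), the alpha subunit of excitatory forebrain neurons, was at 511, 523 and 594 FPKM in Ctrl and 639, 656 and 482 FPKM in Gsk3sKO. The lowest and the highest libraries both belonged to Gsk3sKO, and the log2 fold change was 0.12 (SE 0.17). Of its 7 transcripts, ENSMUST00000102888 alone made up 95.7% of the total in Ctrl, with 481, 504 and 573 FPKM, against 614, 637 and 464 FPKM in Gsk3sKO. The total of Camk2a therefore depended little on how reads were divided between transcripts.

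Camk2b, the beta subunit, which binds actin and brings the holoenzyme to the cytoskeleton, was at 97.0, 110 and 112 FPKM in Ctrl and 102, 156 and 139 FPKM in Gsk3sKO. Gsk3sKO 2 and 3 were above all Ctrl libraries, and Gsk3sKO 1 was among them (log2 fold change 0.29, SE 0.17). Camk2g (14:20734875-20794088, minus strand), the gamma subunit, had the smallest difference of the set, with 61.6 ± 1.32 FPKM in Ctrl and 63.4 ± 4.81 FPKM in Gsk3sKO (SD, n = 3 each) and a log2 fold change of 0.04 (SE 0.12). Its 3 transcripts held 45.6%, 28.8% and 25.6% of the total in Ctrl and 40.4%, 25.8% and 33.8% in Gsk3sKO. The leading one, ENSMUST00000071816, was at 28.7, 31.1 and 24.2 FPKM in Ctrl and 29.9, 30.3 and 15.3 FPKM in Gsk3sKO, so that only Gsk3sKO 3 stood apart.

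Camk2d (3:126596302-126846326, plus strand), the delta subunit, which is also the main form in heart, was at 44.2, 43.1 and 48.7 FPKM in Ctrl and 45.5, 53.5 and 70.7 FPKM in Gsk3sKO (log2 fold change 0.29, SE 0.18). It had 28 transcripts, the most of the set, and 12 of them had a mean of at least 1 FPKM. The largest difference in mean FPKM lay in a short one. The coding transcript ENSMUST00000066452, of 896 bases and 6 exons, was at 8.53, 0.0399 and 0.471 FPKM in Ctrl and 6.32, 13.5 and 24.3 FPKM in Gsk3sKO (log2 fold change 2.51, SE 0.92), with Ctrl 1 inside the Gsk3sKO range. When each transcript was weighted by its length, the fold change of the Camk2d total shrank to 0.05 (SE 0.13).

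The longer transcripts of Camk2d varied within groups. ENSMUST00000106399, the leading one in Ctrl, was at 11.2, 11.6 and 13.8 FPKM in Ctrl and 3.26, 22.6 and 9.93 FPKM in Gsk3sKO. ENSMUST00000106401 was listed at 0 in Ctrl 1 and at 15.0 and 15.6 FPKM in Ctrl 2 and 3, against 0.498, 0.801 and 3.01 FPKM in Gsk3sKO. Both differed by more within a group than the gene total did. ENSMUST00000106400 was at 0.799, 0.998 and 0.918 FPKM in Ctrl and 1.13, 1.03 and 19.1 FPKM in Gsk3sKO, a difference carried by Gsk3sKO 3. The retained-intron transcript ENSMUST00000167417, of 618 bases, was at 2.29, 1.86 and 2.79 FPKM in Ctrl and 3.39, 3.50 and 3.27 FPKM in Gsk3sKO, without overlap (log2 fold change 0.41, SE 0.29).

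The ratios between the subunits overlapped between the groups. The ratio of Camk2a to Camk2b was 5.26, 4.77 and 5.28 in Ctrl and 6.25, 4.21 and 3.48 in Gsk3sKO, with the spread among the Gsk3sKO libraries wider (SD 0.29 against 1.44). Camk2a made up 71.6%, 71.1% and 72.6% of the summed subunits in Ctrl and 75.1%, 71.0% and 63.5% in Gsk3sKO. The library with the lowest share, Gsk3sKO 3, had the lowest Camk2a of all libraries (482 FPKM) and the highest summed Camk2d (70.7 FPKM). Weighted by length, Camk2d was at 28.6 FPKM there, below Gsk3sKO 2 (29.1 FPKM) and Ctrl 3 (29.6 FPKM).

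In Camk2b single transcripts differed by more than the gene total. The leading transcript ENSMUST00000109813 was at 71.8, 46.7 and 65.8 FPKM in Ctrl and 58.0, 114 and 102 FPKM in Gsk3sKO (log2 fold change 0.53, SE 0.30). ENSMUST00000109815 was at 4.34, 30.7 and 14.8 FPKM in Ctrl against 17.1, 0 and 0 FPKM in Gsk3sKO (log2 fold change -2.40, SE 1.28). The libraries in which it was listed at 0, Gsk3sKO 2 and 3, were those with the highest ENSMUST00000109813.

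ENSMUST00000090443 lacks the exons of 75 and 45 bases and has 1 exon that overlaps none of ENSMUST00000109813. It was at 0.0657, 0.993 and 1.65 FPKM in Ctrl and 8.37, 29.4 and 11.0 FPKM in Gsk3sKO. From the estimated depth, these values stand for about 12, 127 and 156 reads in Ctrl and 1381, 3400 and 1318 reads in Gsk3sKO. All Gsk3sKO libraries were above all Ctrl libraries. The log2 fold change was 3.08 (SE 0.57) on the log2(FPKM + 1) scale, and it ranged from 2.57 to 3.42 when each library was left out in turn. The other non-overlapping transcript, ENSMUST00000066431, was low, at 0.595, 0.498 and 0.906 FPKM in Ctrl and 1.32, 0.984 and 2.25 FPKM in Gsk3sKO (log2 fold change 0.57, SE 0.42).

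Summed over transcripts by exon, the exon of 75 bases, in 4 of the 15 Camk2b transcripts, accounted for 83.5% ± 6.40 of the gene total in Ctrl and 77.3% ± 2.76 in Gsk3sKO, and the exon of 45 bases, in 7 of 15, for 86.3% ± 7.16 and 80.0% ± 3.18 (SD, n = 3 each). Both shares overlapped between the groups. Most Camk2b RNA carried the exons of 75 and 45 bases in every library.

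**Figure D2:**
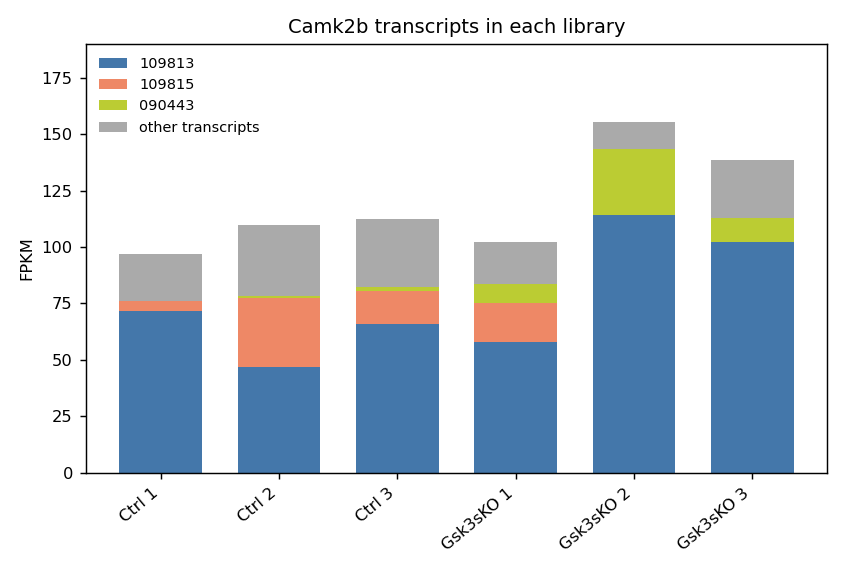
FPKM of Camk2b in each library as stacked bars, with transcripts ENSMUST00000109813, ENSMUST00000109815 and ENSMUST00000090443 coloured and the remaining 12 in grey. ENSMUST00000090443 is at most 1.65 FPKM in Ctrl and between 8.37 and 29.4 FPKM in Gsk3sKO, and ENSMUST00000109815 is at 0 in Gsk3sKO 2 and 3.

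The inhibitors overlapped between the groups and stood in opposite places in 1 library. Camk2n1 (4:138454314-138460123, plus strand), the more abundant inhibitor, was at 205, 161 and 161 FPKM in Ctrl and 179, 187 and 262 FPKM in Gsk3sKO (log2 fold change 0.24, SE 0.18). Camk2n2 (16:20619215-20621287, minus strand) was at 27.3, 43.4 and 35.7 FPKM in Ctrl and 36.3, 38.4 and 18.5 FPKM in Gsk3sKO (log2 fold change -0.23, SE 0.29). Both genes have 1 transcript in the table, so no division between transcripts enters these values. Gsk3sKO 3 had the highest Camk2n1 and the lowest Camk2n2 of all libraries, and the ratio of Camk2n1 to Camk2n2 was 14.2 there against 3.71 to 7.50 in the other libraries. Without Gsk3sKO 3, the log2 fold change of Camk2n2 was 0.10. The summed inhibitors stood at 0.325, 0.278 and 0.240 of the summed CaMKII subunits in Ctrl and 0.253, 0.244 and 0.369 in Gsk3sKO, which overlap.

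Camkv was at 267, 213 and 204 FPKM in Ctrl and 131, 169 and 106 FPKM in Gsk3sKO as a gene total, the only gene of the set without overlap (log2 fold change -0.77, SE 0.19). Most of this difference was in the short NMD transcript. ENSMUST00000193533, of 534 bases, was at 145, 102 and 92.1 FPKM in Ctrl, was listed at 0 in Gsk3sKO 1 and 3, and was at 65.3 FPKM in Gsk3sKO 2. It held 54.4%, 47.6% and 45.1% of the gene total in Ctrl and 38.6% in Gsk3sKO 2. Its log2 fold change of -4.79 (SE 1.62) ranged from -6.80 to -3.78 when each library was left out in turn, with the first value reached without Gsk3sKO 2.

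The coding transcript ENSMUST00000035700 was at 121, 107 and 91.7 FPKM in Ctrl and 16.1, 100 and 104 FPKM in Gsk3sKO (log2 fold change -0.92, SE 0.70). Gsk3sKO 2 and 3 lay within the Ctrl range, and Gsk3sKO 1 was far below it. In Gsk3sKO 1 the retained-intron transcript ENSMUST00000192318 was at 111 FPKM, or 84.4% of the gene total, against at most 6.90 FPKM in the other libraries. The remaining ENSMUST00000194206 was at 0, 0.00589 and 13.3 FPKM in Ctrl and 4.02, 2.51 and 0.125 FPKM in Gsk3sKO, and ENSMUST00000195219 had a mean under 1 FPKM.

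FPKM divides by length, so a read on the short NMD transcript adds more to the total than a read on the coding transcript of 3277 bases. With each transcript weighted by its length, Camkv stood at 145, 126 and 125 FPKM in Ctrl and 129, 114 and 104 FPKM in Gsk3sKO, and the groups overlapped. The log2 fold change was then -0.19 (SE 0.13), beside a median of -0.05 over all 12524 length-weighted totals. The share of the NMD transcript in the weighted total was 16.3%, 13.1% and 12% in Ctrl, 9.34% in Gsk3sKO 2 and 0% in Gsk3sKO 1 and 3. The estimated reads behind it were 3498, 1736 and 1160 in Ctrl and 1007 in Gsk3sKO 2. On the weighted scale the Ctrl values of Camkv were also below those of Camk2n1, at 161 to 205 FPKM.

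**Figure D3:**
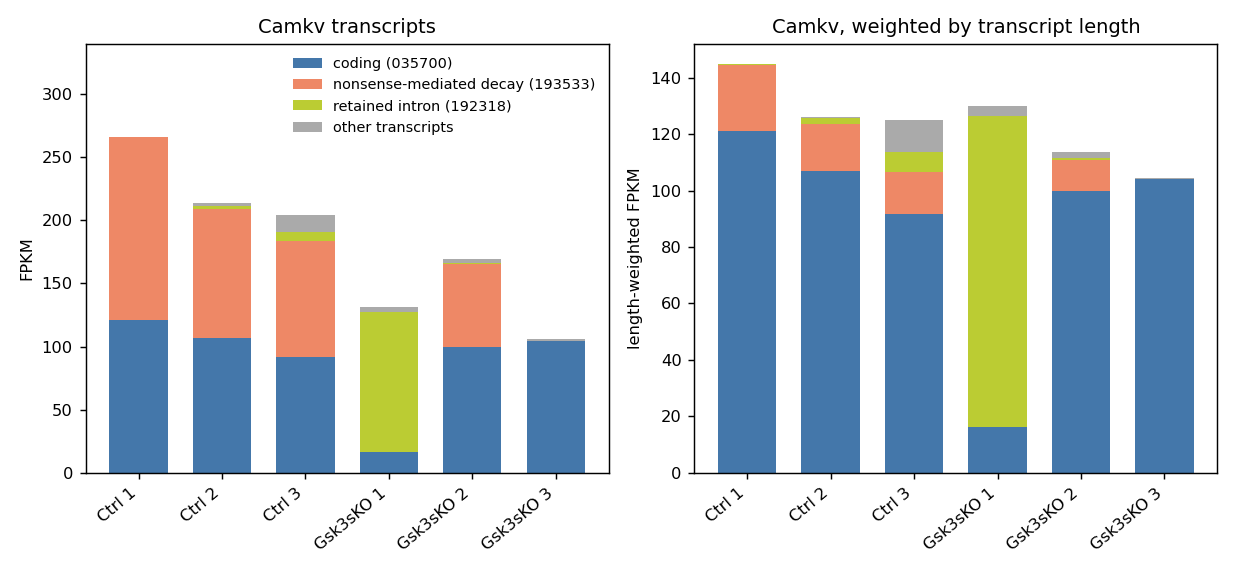
Camkv in each library as stacked bars by transcript, as FPKM (left) and weighted by transcript length (right), with the coding, NMD and retained-intron transcripts coloured. The summed FPKM is 204 to 267 in Ctrl and 106 to 169 in Gsk3sKO, the weighted totals overlap (125 to 145 and 104 to 129), and in Gsk3sKO 1 the retained-intron transcript takes 84.4% of the FPKM.

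Over the 6 libraries, the gene totals whose centred log2 profile was closest to that of Camkv were Mir684-1, Deb1 and Sidt2, with a root mean square difference of 0.077, 0.089 and 0.092, beside a median of 0.507 over all gene totals and a size of 0.446 for the Camkv profile itself. The lysosomal membrane protein gene Sidt2 was at 15.7, 14.7 and 11.8 FPKM in Ctrl and 8.39, 10.7 and 6.55 FPKM in Gsk3sKO. Deb1 was at 27.9, 20.7 and 18.2 FPKM in Ctrl and 13.5, 15.8 and 9.07 FPKM in Gsk3sKO. Mir684-1 was low, between 0.251 and 2.21 FPKM. These genes were chosen for their likeness, and the likeness is over 6 libraries.

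Among the kinases of the CaMKIV branch, Camk4 (18:32939158-33186270, plus strand), which phosphorylates CREB in the nucleus, was at 18.4, 20.9 and 26.5 FPKM in Ctrl and 24.0, 22.8 and 28.5 FPKM in Gsk3sKO (log2 fold change 0.19, SE 0.18). It has 1 transcript in the table, and the groups overlapped. Camkk1 (11:73019008-73042073, plus strand) was at 36.5, 40.4 and 45.5 FPKM in Ctrl and 41.7, 31.2 and 26.7 FPKM in Gsk3sKO (log2 fold change -0.31, SE 0.19). Gsk3sKO 2 and 3 were below all Ctrl libraries, and Gsk3sKO 1 was among them.

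With all 6 libraries, the difference of Camkk1 lay mainly in a transcript annotated as a retained intron, which rested on Ctrl 1. ENSMUST00000155720 was at 13.2, 6.35 and 3.46 FPKM in Ctrl and 2.70, 0.291 and 2.1 FPKM in Gsk3sKO, without overlap (log2 fold change -1.66, SE 0.60). The coding transcript ENSMUST00000092937 was at 23.2, 34.1 and 42.0 FPKM in Ctrl and 39.0, 30.9 and 24.6 FPKM in Gsk3sKO, with a log2 fold change of -0.05 (SE 0.27). Without Ctrl 1, the log2 fold change was -0.28 for the coding transcript, -1.22 for the retained-intron transcript and -0.38 for the gene total. In the 3 Ctrl libraries, the lower the retained-intron transcript, the higher the coding one. A further Camkk1 transcript, ENSMUST00000145834, was listed at 0 in all 6 libraries.

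Camkk2 (5:122731170-122779409, minus strand) was at 32.2, 30.1 and 38.9 FPKM in Ctrl and 39.8, 44.3 and 33.1 FPKM in Gsk3sKO (log2 fold change 0.20, SE 0.17). Its leading transcript ENSMUST00000111668, with 17 exons, was at 29.3, 25.7 and 33.2 FPKM in Ctrl and 33.8, 37.0 and 20.0 FPKM in Gsk3sKO (log2 fold change 0.00, SE 0.26). The short coding transcript ENSMUST00000196742, which has 5 exons and lacks 12 of those 17, was at 0.0615, 0.0518 and 0.808 FPKM in Ctrl and 3.76, 5.68 and 2.24 FPKM in Gsk3sKO. It did not overlap between the groups (log2 fold change 1.89, SE 0.47), at about 3, 2 and 21 reads in Ctrl and 168, 178 and 73 reads in Gsk3sKO. Its share of the Camkk2 total was 0.814% ± 1.10 in Ctrl and 9.68% ± 3.03 in Gsk3sKO (SD, n = 3 each).

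Of the 75 transcripts of the set, 1 was at 0 in all libraries, 31 were above 0 with a mean under 1 FPKM, and 43 had a mean of at least 1 FPKM and entered the fit (34 protein coding and 9 of other types). Of these, 9 were at 0 in at least 1 library. By limma on log2(FPKM + 1), 5 of the 43 were at an unadjusted p under 0.05, beside 5.56% of all 21584 transcripts tested: ENSMUST00000090443, ENSMUST00000066452 and ENSMUST00000196742 were higher in Gsk3sKO (1.81% of all), and ENSMUST00000193533 and ENSMUST00000155720 were lower (3.75% of all). The groups did not overlap in 7 of the 43, beside 11.2% of all transcripts, with 5 of them higher (4.28% of all) and 2 lower in Gsk3sKO (6.96% of all). After adjustment over all transcripts, limma and an ordinary linear model, which shares no variance between transcripts, called 0 of the 43, and the latter had 3 at an unadjusted p under 0.05. ENSMUST00000090443 (mean 0.902 FPKM in Ctrl and 16.2 FPKM in Gsk3sKO) and ENSMUST00000196742 (0.307 and 3.89 FPKM) passed the minimum mean only through Gsk3sKO. So did ENSMUST00000066431 (0.666 and 1.52 FPKM) and ENSMUST00000106400 (0.905 and 7.1 FPKM), which did not overlap. The filter thus let them in by the group in which they were higher. Since the set was also chosen with these values known, nothing is read from the counts.

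As gene totals, all 10 entered the fit. Camkv, lower in Gsk3sKO, alone was at an unadjusted p under 0.05, beside 6.56% of all 12874 gene totals (1.36% higher and 5.2% lower). It alone did not overlap, beside 12% of all (8.3% lower). After adjustment, limma called 0 of the 10, beside 0.0466% of all, and the ordinary linear model called 0 as well, and at an unadjusted p each had 1. The log2 fold changes of 7 genes were above 0 and those of 3 below, with a median of 0.155, beside -0.062 for all gene totals. With length weighting the number at an unadjusted p under 0.05 was again 1 (6.55% of all weighted totals, 5.13% lower), but the gene was Camk2b (83.2, 86.7 and 89.9 FPKM in Ctrl, 88.4, 144 and 121 FPKM in Gsk3sKO, log2 fold change 0.42, SE 0.18). The way transcripts were summed thus moved Camkv and Camk2d towards 0 and Camk2b away from it. Without Gsk3sKO 1, 4 of the 10 gene totals were at an unadjusted p under 0.05: Camkv, Camk2b (log2 fold change 0.46), Camk2d (0.44) and Camkk1 (-0.48). After adjustment 0 passed there, and with any other library left out the unadjusted number was 1. The share of all gene totals in that fit is not given, so nothing is read from the count.

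**Figure D4:**
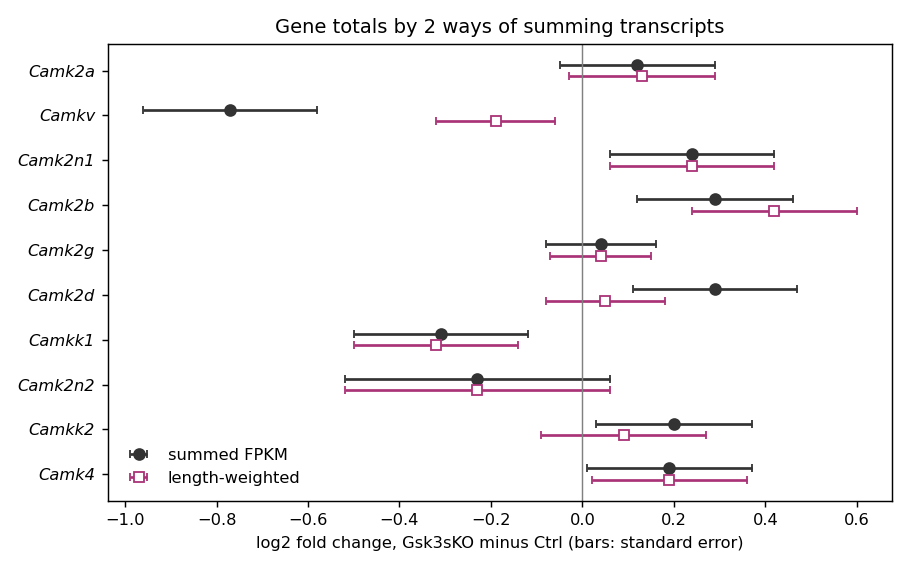
Log2 fold change (Gsk3sKO minus Ctrl) of the 10 gene totals, with bars of 1 standard error, for summed FPKM (filled circles) and length-weighted totals (open squares). Camkv is at -0.77 by summed FPKM and at -0.19 by the weighted total, Camk2d at 0.29 and 0.05, and Camk2b at 0.29 and 0.42.

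Other genes of calcium/calmodulin signalling were taken in 5 lists written from known roles. Of the 72 genes, 69 had a mean of at least 1 FPKM, and Phkg1, Mylk and Dapk2 did not. By limma, 2 of the 69 were higher in Gsk3sKO at an unadjusted p under 0.05 (1.36% of all gene totals) and 0 were lower (5.2% of all). In either direction this is 2.9% beside 6.56% of all gene totals. After adjustment 0 passed by limma or by the ordinary linear model. The latter had 3 at an unadjusted p under 0.05: Mef2c, also called by limma, and Dclk1 and Stk11, which were not, while Ppp3cb was lost. The share of all gene totals in that fit is not given, so nothing is read from the 3. The log2 fold changes ran from -0.45 to 0.76, with 30 above 0 and 39 below. The groups did not overlap in 5 of the 69, beside 12% of all gene totals (3.71% higher and 8.3% lower in Gsk3sKO). These were Dclk1, Ppp3cb, Ppp1cb, Mef2c and Stk11, each higher in Gsk3sKO.

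Of the 8 genes for calmodulin and the proteins that hold it, such as neurogranin, 0 were called in either direction (median log2 fold change -0.06). Calm2, the most abundant, was at 3361, 2116 and 2147 FPKM in Ctrl and 2443, 2224 and 3166 FPKM in Gsk3sKO. Of 14 genes listed as other kinases, 11 were tested and 0 called (median -0.04). The highest of them, Dclk1, a kinase that binds microtubules, was at 71.8, 83.9 and 78.8 FPKM in Ctrl and 86.7, 90.4 and 92.4 FPKM in Gsk3sKO, without overlap (log2 fold change 0.20, SE 0.12), though its weighted total gave 0.03. Of 15 substrates and partners of CaMKII at the synapse, 0 were called (median -0.01), and the highest, Syn1, which tethers synaptic vesicles, was at 213, 231 and 273 FPKM in Ctrl and 251, 233 and 187 FPKM in Gsk3sKO.

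Of 15 genes for calcineurin and other phosphatases that oppose CaM kinases, and their regulators, 1 was higher and 0 lower (median 0.07). Ppp3cb, the beta catalytic subunit of calcineurin, was at 50.9, 42.9 and 91.4 FPKM in Ctrl and 98.8, 99.8 and 102 FPKM in Gsk3sKO, a log2 fold change of 0.76 (SE 0.25, limma unadjusted p = 0.0157, adjusted p = 0.688). Ctrl 3 was near the Gsk3sKO libraries and the other Ctrl libraries were well below. The call was lost without Ctrl 1, where the log2 fold change was 0.67, and without Ctrl 2, where it was 0.54. Ppp3ca, the most abundant catalytic subunit, was at 329, 456 and 497 FPKM in Ctrl and 482, 482 and 509 FPKM in Gsk3sKO, which overlap (log2 fold change 0.22, SE 0.18). Ppp1cb, a catalytic subunit of protein phosphatase 1, was at 36.2, 44.2 and 49.6 FPKM in Ctrl and 52.6, 53.7 and 58.7 FPKM in Gsk3sKO (log2 fold change 0.35, SE 0.15).

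Of 20 genes listed for the CREB, MEF2 and AMPK branch of Camk4 and Camkk2, 1 was higher and 0 lower (median -0.03). Mef2c, a transcription factor of cortical neurons, was at 152, 183 and 180 FPKM in Ctrl and 214, 216 and 216 FPKM in Gsk3sKO (log2 fold change 0.33, SE 0.13, limma unadjusted p = 0.032, adjusted p = 0.741). All Gsk3sKO libraries were above all Ctrl libraries. The call was lost without Ctrl 1, where the log2 fold change was 0.24, and without any 1 of the Gsk3sKO libraries, where it stayed at 0.33. Stk11, the kinase LKB1 that activates AMPK, was at 21.4, 19.4 and 19.3 FPKM in Ctrl and 22.8, 23.0 and 27.4 FPKM in Gsk3sKO (log2 fold change 0.27, SE 0.15). With length weighting, Ppp3cb was at 0.75 and Mef2c at 0.37.

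**Figure D5:**
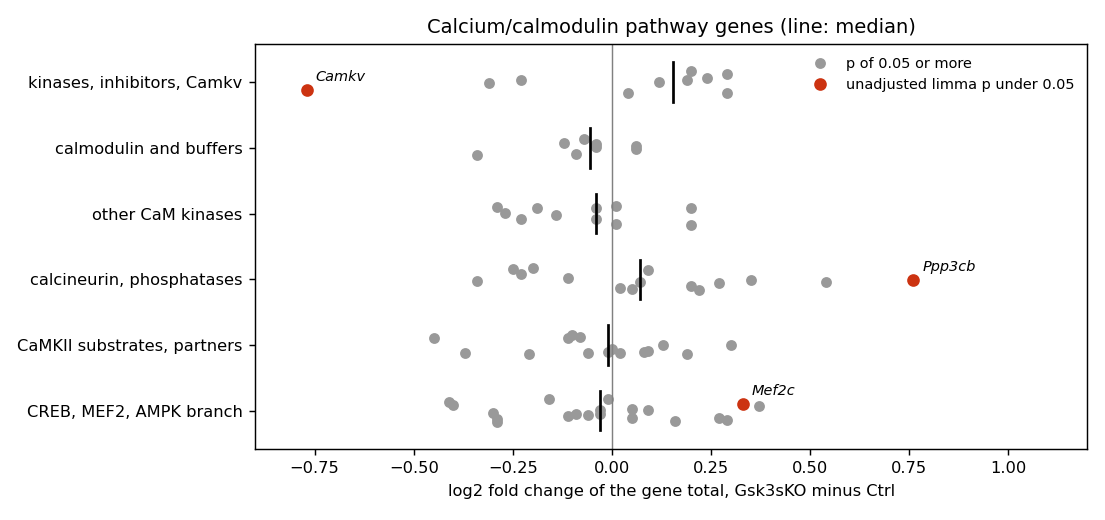
Log2 fold changes (Gsk3sKO minus Ctrl) of gene totals, 1 point per gene, for the 10 genes of the set and the 5 lists, with a line at each median and red for an unadjusted limma p under 0.05. Ppp3cb (0.76) and Mef2c (0.33) are the red points of the lists, whose medians lie between -0.06 and 0.07.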

How the data were processed

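Ribosome-associated RNA from 3 Ctrl and 3 Gsk3sKO libraries was measured by RNAseq, and libraries were assigned to groups from their titles. The authors deposited FPKM per transcript, from HISAT2 2.1.0, SAMtools 1.9 and StringTie 1.3.4d per the submitters' processing notes, on GRCm38. The settings of these steps were not given in the sources used here. The division of reads between overlapping transcripts is an estimate by the assembler, so a low value of 1 transcript can go with a high value of another. Columns with a fold, a p-value and a q-value, which the authors also deposited, were not used. All 6 value columns were used.

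The set of 10 genes and the 5 lists were chosen with earlier results of these data known. Every gene of the set is named. Its gene total is given in every library, as are its leading transcript in Ctrl, each transcript at an unadjusted p under 0.05 or without overlap, and Camk2b ENSMUST00000090443. Of the lists, genes at an unadjusted p under 0.05 and the most abundant gene are named. Other genes named from the lists, transcripts named beyond the rule and the length-weighted totals were chosen after their values were seen.

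FPKM was summed by gene identifier for gene totals. Differences were fitted with limma 3.58.1 (R 4.3.3; lmFit, eBayes with trend) on log2(FPKM + 1), without covariates, for features with a mean of at least 1 FPKM over 6 libraries, and p-values were adjusted (Benjamini-Hochberg) over all features. A fold change on this scale understates that of low transcripts. Length-weighted totals are FPKM times transcript length, summed and divided by the longest transcript above 0 (GENCODE M21, in which 114237 of 115220 transcripts and all 75 of the set were found). On simulated data with a log2 change of 1 in features with a mean log2 value above 3, the fit recovered 75% of changed transcripts at an unadjusted and 7% at an adjusted p under 0.05 (21584 transcripts), and 90% and 52% of changed gene totals (12874 gene totals). Some items are not reported here. Sequencing depth was inferred from the steps between low values, of which between 16.8% and 34.9% per library lay within 0.02 reads of a whole number at the chosen depth, against at most 2.99% at the median candidate, so estimated reads are approximate. Tools were Python 3.11.15, numpy 2.4.6, pandas 2.3.3 and matplotlib 3.10.9.

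Alternatives were a pseudocount of 0.1, no filter, a minimum of 5 FPKM, median-ratio scaling, the replicate number as a block, an ordinary linear model and each library left out.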

Additional observations from a re-analysis of the deposited data

How the results depend on the processing

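No alternative turned the sign of a called value. The number of transcripts of the set at an unadjusted p under 0.05, 5 of 43, was 3 with a minimum mean of 5 FPKM (of 20 tested) and 3 with the ordinary linear model, where Camk2b ENSMUST00000090443 and Camkk2 ENSMUST00000196742 were shared with the 5 and Camk2d ENSMUST00000167417 was not, and 2 to 6 with 1 library left out. Without Gsk3sKO 2, 1 of 42 transcripts, Camkv ENSMUST00000193533, also passed after adjustment. That fit dropped the Gsk3sKO library in which this transcript had a value above 0. The remaining Gsk3sKO libraries were both at 0, so their lack of spread is that of values at the floor, and nothing is read from the pass. Of the gene totals of the set, 1 was called, 0 with protein-coding transcripts only, and 1 to 4 with 1 library left out. The calls in the lists were for calmodulin and its buffers 0 (0 to 1 with 1 library left out), for other kinases 0 (1 without a filter and 1 with the ordinary linear model, 0 to 0 with 1 library left out), for phosphatases 1 (2 without a filter, 2 with median-ratio scaling, 0 with the ordinary linear model, 0 to 4 with 1 library left out), for CaMKII substrates 0 (0 to 1) and for the CREB, MEF2 and AMPK branch 1 (2 without a filter, 2 with the ordinary linear model, 2 with protein-coding transcripts only, 0 to 2 with 1 library left out). The cause of these changes was not tested. The shares of all features in these alternative fits are not given, so nothing is read from the counts. The pairs of neighbouring genes in the same order in every library numbered 5, and 5 to 6 with 1 library left out. The log2 ratio of Camk2a to Camk2b differed by -0.18 between the groups (-0.41 to 0.01), that of inhibitors to subunits by 0.02 (-0.17 to 0.13), and the share of Camkv in the NMD transcript by -36.2 percentage points (-49.0 to -29.7). With a pseudocount of 0.1, the log2 fold changes of Camk2b ENSMUST00000090443, Camk2b ENSMUST00000066431 and Camkk2 ENSMUST00000196742 were 4.36, 1.04 and 3.73. With protein-coding transcripts only, that of Camkk1 was -0.05 and that of Camkv -0.87 (SE 0.56).

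Same-numbered libraries of the groups did not deviate together (correlations of -0.0274, -0.0108 and -0.0809), so the numbers were not taken as pairs. With the replicate block, 5 transcripts and 1 gene total of the set were called, as were 1 gene of the phosphatases and 0 of the CREB, MEF2 and AMPK branch, where Mef2c was lost at the same log2 fold change of 0.33. Of the 5 transcripts called without the block, 4 were also called with it, Camk2d ENSMUST00000066452 was lost, and Camk2b ENSMUST00000101585 was gained. The block changed no other call of the gene totals of the set or lists. With 3 libraries per group and values that hold no read counts, differences of single transcripts rest on the assembler's division of reads, and transcripts under about 1 FPKM could not be compared.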
